A study of Mus musculus with 14 samples.

Results

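The genes described here are 10 that rebuild and store triglyceride in the absorptive cell of the small intestine: Mogat2, Dgat1, Dgat2, Acsl5, Slc27a4, Cd36, Agpat2, Plin2, Plin3 and Cideb. They were chosen by name, and every probe set annotated to exactly 1 of these symbols was used. This gave 12 probe sets for 9 of the 10 genes, of 12394 genes with such a probe set. Agpat2, which acylates lysophosphatidic acid, was not analysed here. The groups were villi (3 arrays) and crypts (3 arrays) of C57BL/6 mice aged 12 weeks, with 1 mouse per sample, and the endoderm (4 arrays) and mesenchyme (4 arrays) of fetal intestine at embryonic day 12 (E12). The labels name no genotype change or treatment in any group, and no strain for the fetuses. Adult arrays are called by their labels, V12, V41 and V275 for villi and K12, K21 and K41 for crypts. Villi are the projections lined mainly by absorptive enterocytes, crypts are the pockets that hold stem, dividing and Paneth cells, endoderm is the inner sheet from which the epithelium arises, and mesenchyme is the tissue around it that becomes muscle and connective tissue. The E12 layers were dissected after collagenase digestion and pooled, 3 arrays of each layer from 10 to 12 fetuses and the fourth from 35.

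Dietary fat reaches the enterocyte as fatty acids and 2-monoacylglycerol. The fatty acids are taken up and coupled to coenzyme A, Mogat2 adds an acyl chain to monoacylglycerol, and the Dgat enzymes add the last chain to give triglyceride. Other tissues build triglyceride mainly from glycerol phosphate. The product is either loaded onto chylomicrons for export or held in cytosolic droplets coated by perilipins.

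Values are log2 signals of oligonucleotide arrays, held in a pair of tables that were normalized apart, so levels were compared only within a table and only for the same probe set. All 6 adult arrays shared the first table with 1 array of each E12 layer (those from 35 fetuses), and the remaining 6 E12 arrays made up the second. The 30th percentile of each table, 5.78 in the first and 4.74 in the second, was taken as the level under which a signal is near background. Differences are limma estimates ± SE. A call means an adjusted p below 0.05, with the adjustment made over all genes of the comparison. The markers went with the labels in direction. All 6 measured enterocyte markers rose in villi and all 5 crypt base and proliferation markers fell there. Lct, an enterocyte marker, was near background on every crypt array. It was tested only because its villus arrays were above that level, so the count of 6 is partly fixed. On every crypt array 5 of the 6 enterocyte markers were above the near-background level, as were all 5 crypt markers on every villus array. The log2 of the summed signal of the crypt markers was 10.77 to 13.20 in villi and 14.87 to 14.98 in crypts. All 6 epithelial markers were higher in E12 endoderm than in E12 mesenchyme, and all 6 mesenchyme markers were lower. Of the mesenchyme markers, 4 or 5 were above the near-background level on the endoderm arrays. Any marker near background there was tested because its mesenchyme arrays were above that level, so the count of 6 lower is partly fixed. All 6 epithelial markers were above the near-background level on each mesenchyme array of the second table. In these bulk samples, fewer cells of a type and less RNA per cell cannot be told apart.

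Villi were compared with crypts to find how the pathway differs between the absorptive and the proliferating compartment. Nearly the whole route from fatty acid to triglyceride stood several-fold higher in villi, with the carrier Slc27a4 and the acyltransferase Mogat2 at the top and the droplet coat gene Plin2 far below the rest. Of the 9 measured members, 8 passed the filter on dim genes, and all 8 were above the near-background level on all 8 arrays of the first table, so none entered through 1 group alone. All 8 rose in villi, where 16.9% of all 9962 genes tested were called higher. Their median difference was 2.67, against -0.00089 over all genes tested. For all 8, every villus array was above every crypt array, a pattern that 24.3% of all genes tested showed. Of the 8, 7 rose by at least 2-fold, as did 10.4% of all genes tested.

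**Figure D1:**
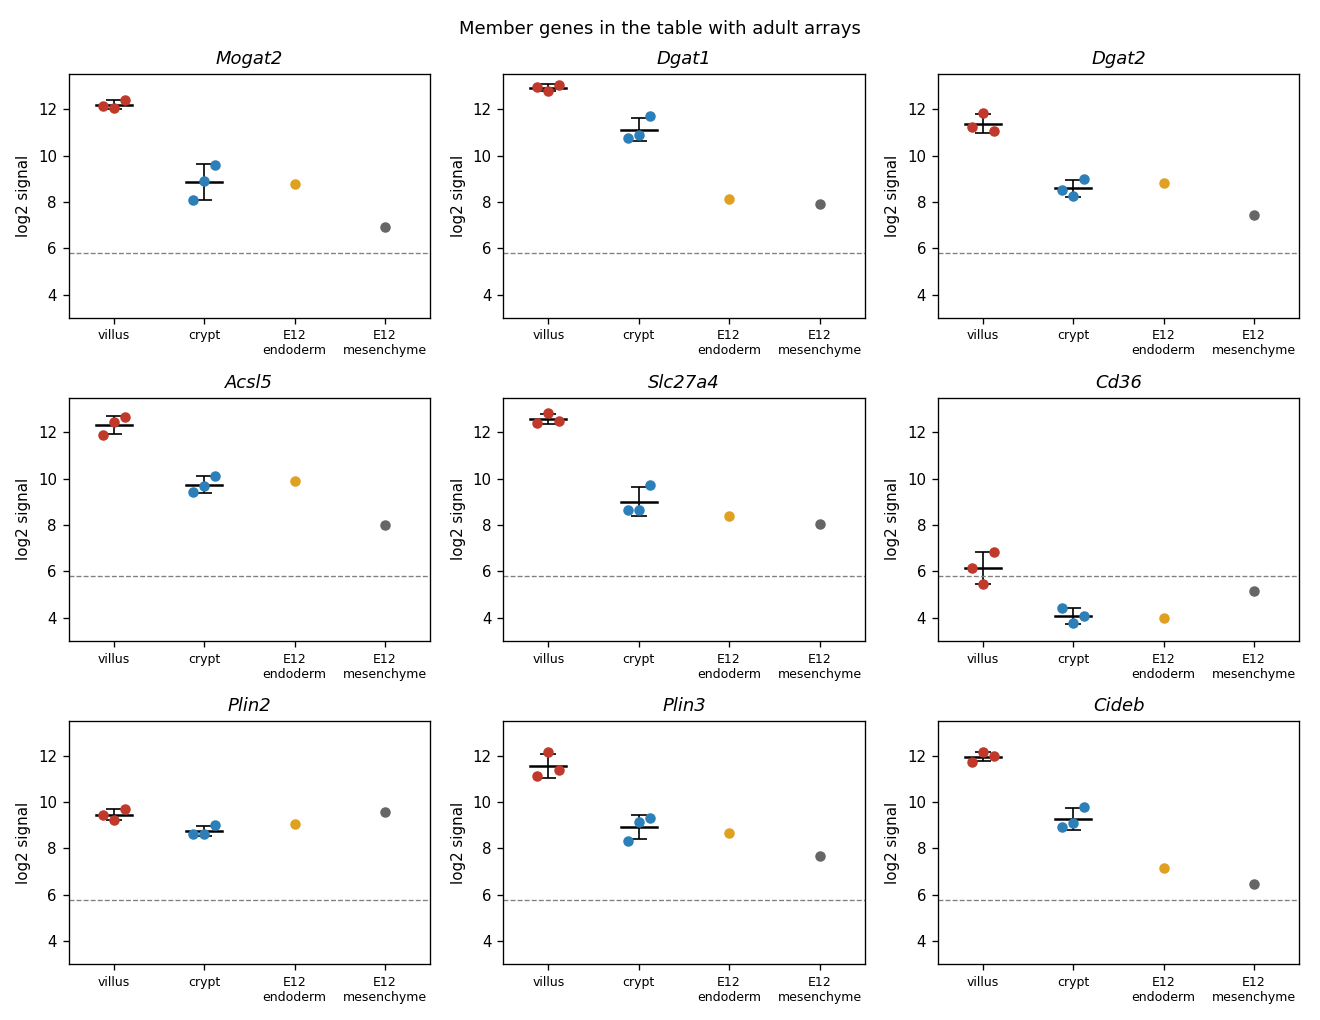
Log2 signal (vertical axis) of the 9 measured genes on each array of the first table, by group; points are arrays, bars the mean and SD where a group has 3 arrays, and the dashed line is the near-background level of 5.78. Villus points lie above crypt points in each panel, by the least for Plin2, and Cd36 passes the dashed line on 2 villus arrays only.

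Slc27a4 encodes fatty acid transport protein 4, which takes part in the uptake and activation of long-chain fatty acids. It read 12.41, 12.82 and 12.50 in villus arrays V12, V41 and V275, against 8.65, 8.65 and 9.73 in crypt arrays K12, K21 and K41. The lowest villus array was well above the highest crypt array. The difference of 3.56 ± 0.30 (limma adjusted p = 0.000308) is an 11.8-fold excess in villi and was larger than that of 99.3% of the genes tested.

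Acsl5, the acyl-CoA synthetase that prepares long-chain fatty acids for esterification, read 11.89, 12.45 and 12.65 in villi, against 9.41, 9.68 and 10.12 in crypts. The groups were separate, with a 6.03-fold excess in villi (2.59 ± 0.25, limma adjusted p = 0.000497).

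Mogat2 carries out the first acylation of the monoacylglycerol route. It read 12.12, 12.06 and 12.40 in villi, against 8.08, 8.90 and 9.61 in crypts. The villus arrays lay close together (SD 0.18) while the crypt arrays were spread widely (SD 0.76). Villi exceeded crypts 10.1-fold (3.33 ± 0.35, limma adjusted p = 0.000621).

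Dgat1 and Dgat2 both catalyse the last acylation but belong to unrelated protein families. Dgat1 read 12.97, 12.78 and 13.05 in villi, against 10.76, 10.90 and 11.68 in crypts. Its 3.53-fold excess (1.82 ± 0.25, limma adjusted p = 0.00162) was the smallest among the members of uptake, activation and acylation. Dgat2 read 11.22, 11.85 and 11.07 in villi, against 8.49, 8.27 and 8.97 in crypts, a 6.97-fold excess (2.80 ± 0.26, limma adjusted p = 0.000402). The other Dgat2 probe set gave a difference of 2.22 ± 0.28 in the same direction. The probe sets of Dgat1 and Cideb are of a type that can bind more than 1 transcript.

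The droplet genes split. Plin3, a perilipin that moves from the cytosol onto new droplets, read 11.13, 12.15 and 11.37 in villi, against 8.32, 9.13 and 9.30 in crypts, a 6.22-fold excess (2.64 ± 0.34, limma adjusted p = 0.00129). Plin2, the perilipin that stays bound to droplets and is degraded when they are lost, read 9.42, 9.24 and 9.71 in villi, against 8.61, 8.62 and 9.01 in crypts. The groups did not overlap but lay close, and the difference was 0.71 ± 0.18, or 1.63-fold (limma adjusted p = 0.0225). The Plin2 call was lost without K12 (0.64, limma adjusted p = 0.0798), K21 (0.64, adjusted p = 0.0949) or V275 (0.58, adjusted p = 0.0736), and after quantile normalization (0.47, adjusted p = 0.0703). Cideb, which in mice takes part in loading lipid onto nascent lipoproteins and in droplet fusion, read 11.74, 12.15 and 12.00 in villi, against 8.91, 9.10 and 9.77 in crypts, a 6.48-fold excess (2.70 ± 0.24, limma adjusted p = 0.000358).

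Cd36, a scavenger receptor that binds long-chain fatty acids and is also made by endothelium, macrophages and fat cells, gave little signal. Its brightest probe set read 6.13, 5.46 and 6.84 in villi, against 4.42, 3.76 and 4.06 in crypts, so that 2 of the 3 villus arrays and none of the crypt arrays passed the near-background level. It therefore missed the filter on dim genes. In the fit of all 20393 probe sets with 1 symbol, this probe set differed by 2.06 ± 0.35 (limma adjusted p = 0.00714) and a second by 1.55 ± 0.43 (limma adjusted p = 0.0404). The remaining probe set differed by 0.39 ± 0.17 (limma adjusted p = 0.135) and was near background on every array. All 3 probe sets were higher in every villus array than in every crypt array. Since crypts were near background, the size of these differences is not exact. Between villi and crypts, 0 of 3 endothelial markers tested were called by limma, and 1 was lower at an unadjusted p under 0.05, with differences between -0.42 and 0.13, and the summed endothelial signal was 8.95 to 9.05 in villi and 8.93 to 9.15 in crypts on the log2 scale. Of 5 macrophage and leukocyte markers tested, 2 rose and 1 fell, with a summed log2 signal of 9.76 to 10.03 in villi and 9.58 to 9.67 in crypts. All 5 T cell markers rose, with a summed log2 signal of 11.78 to 13.00 in villi and 9.26 to 9.47 in crypts. Cd3g was near background in crypts and passed the filter only through the villus arrays, so this count is partly fixed by that filter. Of 4 fat cell markers with a probe set, Adipoq and Lep did not pass the filter. Cidec, which passed it only through the villus arrays, rose, and Retn differed by 0.06 and was not called. The summed log2 signal of the fat cell markers was 8.79 to 9.67 in villi and 8.17 to 8.31 in crypts. The part of all these cells in the Cd36 signal was not tested.

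The crypt arrays were not alike. K41 had the highest crypt value for 8 of the 8 members, and K12 the lowest for 7 of them. Bright signals of the whole array ran in the same order. The 90th percentile of an array's signals was lowest in K12, 9.11 in K21 and 9.29 in K41. The array medians ran the other way, at 6.80 in K12, 6.75 in K21 and 6.74 in K41. Whether the order of the members goes beyond that of other bright genes was not tested. The mean log2 signal of 6 enterocyte markers was 12.57, 12.51 and 12.90 in V12, V41 and V275, against 8.08, 8.63 and 9.08 in K12, K21 and K41, so that K41 was highest among crypts there too. The part of enterocyte content in the differences was not tested. Without K41 all 8 members remained called, with differences from 0.84 for Plin2 to 3.92 for Slc27a4.

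For 7 of the 10 genes a promoter sequence was at hand in RefSeq (GRCm38.p6), and the 250 bases before the transcription start were searched on both strands for 4 short motifs. They are shown for the carrier with the largest rise and for the perilipin that rose with it, with GC boxes (GGGCGG) in capitals in both and the CCAAT box also in capitals in the second.
Slc27a4, chr2:29802384-29802633, plus strand: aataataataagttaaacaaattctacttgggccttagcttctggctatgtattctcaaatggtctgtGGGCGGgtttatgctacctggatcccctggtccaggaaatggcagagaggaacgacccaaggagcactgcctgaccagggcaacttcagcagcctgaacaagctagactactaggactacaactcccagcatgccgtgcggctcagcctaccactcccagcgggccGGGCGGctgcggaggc
Plin3, chr17:56290512-56290761, minus strand: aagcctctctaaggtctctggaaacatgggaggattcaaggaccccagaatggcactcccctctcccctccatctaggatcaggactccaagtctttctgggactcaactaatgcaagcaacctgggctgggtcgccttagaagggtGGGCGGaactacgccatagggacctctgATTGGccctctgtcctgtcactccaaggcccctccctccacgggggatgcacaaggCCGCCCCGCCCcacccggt
In the second sequence the last 2 GC boxes lie on the opposite strand and share a base, and the CCAAT box is also on the opposite strand.

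The GC box was in 5 of the 7 member windows (Agpat2, Cd36, Cideb, Plin3 and Slc27a4) and in 32.7% of all 32851 promoter windows of that length. The CCAAT box was in 4 of the 7 (Acsl5, Cd36, Plin2 and Plin3) and in 33.9% of all windows. The half-site AGGTCA, which many nuclear receptors can bind, was in 2 of the 7, Cd36 and Plin2, and in 14.02% of all windows. The Plin2 match is shown with the motif in capitals, read on the opposite strand, because Plin2 was the member that rose least in villi.
Plin2, chr4:86670260-86670289, minus strand: tttcaggaccccTGACCTaagtcagacagc
The sequence CAAAGTCC, a form of the site bound by HNF4 factors, was in 1 of the 7, Cideb, and in 1.20% of all windows. It is shown in capitals, also on the opposite strand, as the match that is rarest among all windows.
Cideb, chr14:55758492-55758521, minus strand: acacaaacggcGGACTTTGgttacttctac
These matches describe the sequence only, and whether a factor binds there was not tested.

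Among 10 tested genes of the glycerol phosphate route and other acyltransferases, 5 rose and 3 fell in villi, with a median difference of 0.45, where 32.0% of all genes tested were called in either direction. The phosphatidate phosphatase Lpin2 rose by 2.33 ± 0.39 and Lpcat3, which remodels phospholipids, by 2.03 ± 0.22. The genes named next were chosen after their values were seen. Gpam, the mitochondrial acyltransferase that starts the glycerol phosphate route, read 7.19, 6.17 and 6.43 in villi, against 8.39, 8.62 and 8.19 in crypts. Every villus array was below every crypt array, and the difference was -1.80 ± 0.27 (limma adjusted p = 0.00244), a 3.49-fold lower signal in villi. Taking the median over probe sets gave -1.17 (adjusted p = 0.00227). The endoplasmic reticulum enzyme Gpat4 (-0.92) and the phosphatase Lpin1 (-0.92) also fell, while Lpin3 (1.56) and Gpd1 (1.80), which makes glycerol phosphate from a glycolytic intermediate, rose. Taking the median over probe sets gave 0.83 for Gpd1, still called.

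Among 8 tested genes of fatty acid uptake and activation, 3 rose and 1 fell, with a median of 0.02. These are 4 called of 8, where 32.0% of all genes tested were called. The rises were led by the intracellular fatty acid binding protein genes Fabp1 (5.68 ± 0.51) and Fabp2 (3.77 ± 0.32). The 4 other Slc27a carriers tested, Slc27a1, Slc27a2, Slc27a3 and Slc27a5, were not called, with differences between -0.68 and 0.05.

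Among 12 tested genes of lipid droplet coat and assembly, 3 rose and 1 fell, with a median of 0.02, and the 4 called of 12 are close to the 32.0% of all genes tested. Cidec, the droplet fusion gene related to Cideb, read 7.36, 9.03 and 7.60 in villi, against 4.53, 4.93 and 4.97 in crypts. It rose by 3.18 ± 0.41 (limma adjusted p = 0.00132), but crypts were near background, so the size is not exact, and as Cidec passed the filter only through the villus arrays, its place among the 3 rises is partly fixed by that filter. Tm6sf2, a membrane protein gene of lipoprotein lipid loading, rose by 3.15 ± 0.34, and the droplet dehydrogenase gene Hsd17b11, named after its value was seen, by 2.36 ± 0.24. Plin4, the other perilipin gene tested, differed by 0.26 ± 0.16 (95% interval -0.10 to 0.62) and was not called.

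Among 14 tested genes of triglyceride and monoglyceride breakdown, 8 rose, 6 were not called and 0 fell by limma (0 were lower also at an unadjusted p under 0.05), with a median of 0.74, where 32.0% of all genes tested were called and 16.9% were higher. The monoacylglycerol lipase gene Mgll, not called here, was called lower in the fit of all 4 groups, which uses another of its probe sets (-1.13, adjusted p = 0.0170), and with the median over probe sets (-0.70, adjusted p = 0.0290). The carboxylesterase genes Ces2a (3.88 ± 0.56) and Ces2e (3.04 ± 0.46) led the rises. The genes named next were chosen after their values were seen. Lipe, hormone-sensitive lipase, read 9.32 ± 0.33 in villi and 6.86 ± 0.17 in crypts (SD, n = 3 each), a 5.52-fold excess (limma adjusted p = 0.000253). Pnpla2, which starts triglyceride hydrolysis at the droplet, rose by 1.68 and its activator Abhd5 by 0.71. With the median over probe sets Pnpla2 rose by 0.93.

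**Figure D2:**
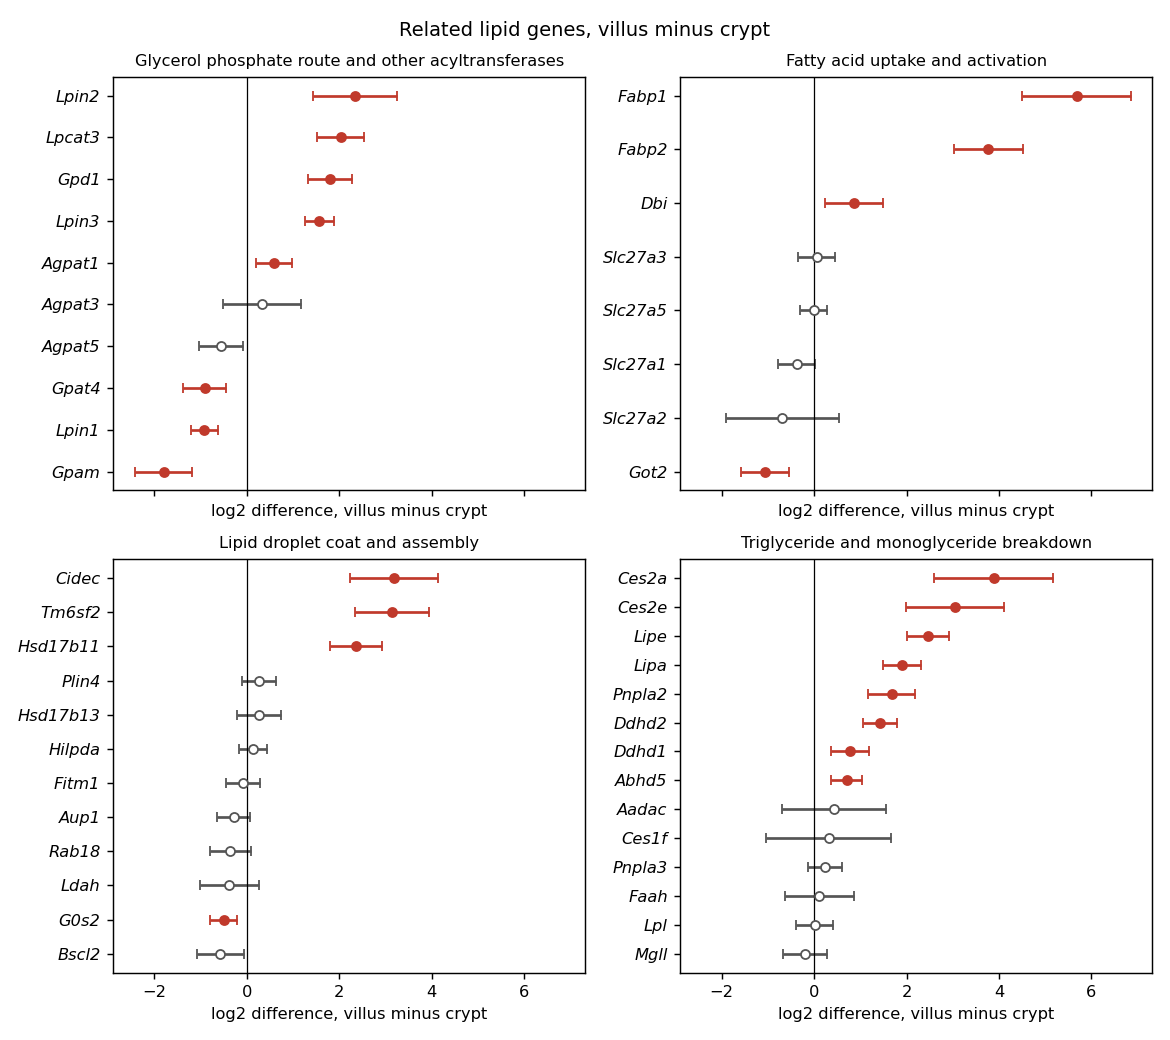
Log2 differences of the related genes, villus minus crypt (horizontal axis), with limma 95% intervals; filled red points were called and open points were not. Gpam, Gpat4 and Lpin1 lie left of 0 in the first panel, where Lpin2, Lpcat3, Gpd1 and Lpin3 lie right of it.

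Adult villi and crypts were each set against E12 endoderm to see where the members stand before villi form. Only 1 endoderm array was in the same table, so the fit took its spread from the other groups, and the comparisons below share arrays with each other and with villus against crypt. Villi exceeded E12 endoderm in 7 of 8 members tested, where 17.0% of all 10082 genes tested were called higher. Crypts exceeded it in 2 of 8, Dgat1 and Cideb, where 8.20% of all genes tested were called higher.

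Dgat1 read 11.11 ± 0.50 in crypts (SD, n = 3) and 8.11 on the endoderm array, a difference of 3.01 ± 0.35 (limma adjusted p = 0.00134). Cideb read 9.26 ± 0.45 in crypts (SD, n = 3) and 7.15 on the endoderm array, a difference of 2.12 ± 0.34 (limma adjusted p = 0.00471). Villi exceeded endoderm 28.4-fold for Dgat1 (4.83 ± 0.35) and 28.1-fold for Cideb (4.81 ± 0.34). The order villus, crypt, endoderm was therefore separated at each step for these genes. Without the probe set types that can bind more than 1 transcript, neither has a value.

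The other members did not pass the test between crypts and endoderm. Acsl5 read 9.74 ± 0.36 in crypts (SD, n = 3) and 9.91 on the endoderm array, which lay inside the crypt range, with a difference of -0.18 (95% interval -1.01 to 0.66). Mogat2 read 8.86 ± 0.76 in crypts (SD, n = 3) and 8.77 on the endoderm array, with a difference of 0.09 (95% interval -1.06 to 1.24) that turned to -0.28 without K41. Dgat2 differed by -0.22 (95% interval -1.07 to 0.64), Plin3 by 0.24 (95% interval -0.86 to 1.35) and Slc27a4 by 0.62 (95% interval -0.37 to 1.61). These intervals are wide and do not show that the levels are alike. Against endoderm, villi were higher by 4.19 ± 0.43 for Slc27a4, 3.42 ± 0.49 for Mogat2, 2.88 ± 0.48 for Plin3, 2.58 ± 0.37 for Dgat2 and 2.42 ± 0.36 for Acsl5, with limma adjusted p from 0.000272 to 0.00244.

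Plin2 kept a narrow range throughout. It read 9.45 ± 0.24 in villi and 8.75 ± 0.23 in crypts (SD, n = 3 each), 9.04 on the endoderm array and 9.56 on the mesenchyme array of the same table. Neither villi (0.42, 95% interval -0.19 to 1.02) nor crypts (-0.29, 95% interval -0.89 to 0.32) were called against endoderm. Cd36 missed the filter on dim genes here too. In the fit of all probe sets its brightest one was higher in villi than in endoderm by 2.17 ± 0.49 (limma adjusted p = 0.0146) and differed between crypts and endoderm by 0.11 ± 0.49 (adjusted p = 0.894), with crypts and endoderm near background.

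Of the related lists, the glycerol phosphate list had 5 genes higher and 3 lower of 10 in villi against endoderm. There 39.1% of all genes tested were called. Gpd1 was at 3.41 ± 0.29, or 2.27 at the lowest among the alternatives. Gpam was at -2.36 ± 0.38, or -1.36 with the median over probe sets. In crypts against endoderm, where 23.3% of all genes tested were called, the list had 1 higher and 1 lower. The lower one was Agpat5 (-1.45), an acyltransferase of phosphatidic acid synthesis. The higher one was Gpd1 (1.61). With only the 2 groups compared, another of its probe sets stood for Gpd1, which was then at 0.59 and not called. Tm6sf2 and Ces2e shared the step pattern of Dgat1 and Cideb, with Tm6sf2 higher in crypts than in endoderm by 3.13 and higher in villi than in endoderm by 6.27, and Ces2e by 3.59 and 6.63. The endoderm array was near background for both, so these sizes are not exact. Fabp1 ran the other way in crypts, at 5.87 ± 0.11 (SD, n = 3) against 8.45 on the endoderm array (-2.58, limma adjusted p = 0.0367), a call lost on leaving out K12, K21 or K41 (adjusted p = 0.0848, 0.0955 and 0.0773). Villi exceeded endoderm for Fabp2 by 4.32, for Fabp1 by 3.10 and for Cidec by 3.44. Cidec was near background in endoderm and crypts and passed the filter only through the villus arrays. Its size is therefore not exact, and its place among the droplet genes higher in villi is partly fixed by that filter. The Fabp1 call was lost with only the 2 groups compared (adjusted p = 0.0758). In full, uptake and activation genes were 2 higher and 1 lower of 8 in villi and 0 higher (3 at an unadjusted p under 0.05) and 2 lower of 8 in crypts, by limma against endoderm. The second of these 2 was Got2, a mitochondrial aminotransferase also known as a fatty acid binding protein of the plasma membrane (-1.11). The Got2 call was also lost without K12, K21, K41 or V275, with a trended and robust prior in limma, and after quantile normalization (-0.78). Without the probe set types that can bind more than 1 transcript, Got2 differed by -1.83 and was called. Droplet genes were 4 higher of 12 in villi and 2 higher of 12 in crypts, Tm6sf2 and Aup1 (1.62), which codes for a droplet protein. Beside these list counts, 39.1% of all genes tested were called in villi against endoderm, with 17.0% higher. In crypts against endoderm the shares were 23.3% and 8.20%. Breakdown genes were 7 higher and 1 lower of 14 in villi and 2 higher and 2 lower of 14 in crypts. The second crypt gene higher was Mgll (1.75), a call lost without K21 (1.61, adjusted p = 0.0575) and with its other probe set (0.70, adjusted p = 0.118). Ces2a exceeded endoderm by 6.16 in villi, but the endoderm array lay at the near-background level of 5.78, so this size is not exact.

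**Figure D3:**
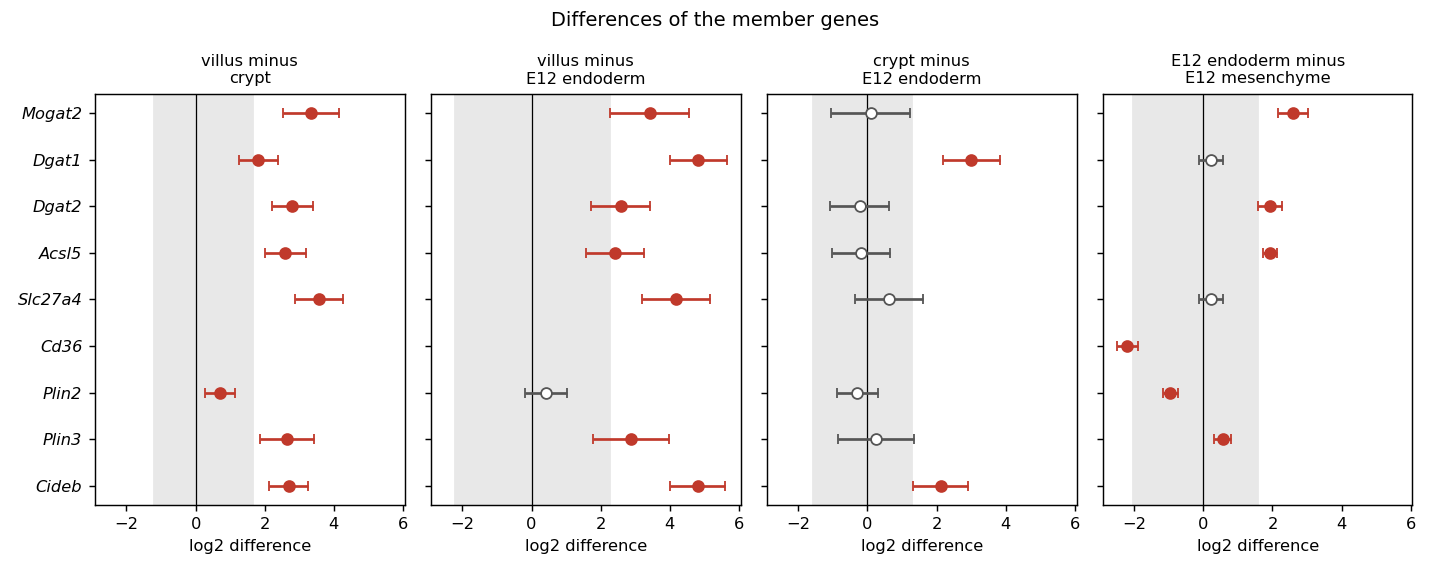
Log2 differences of the members (horizontal axis) in the 4 comparisons, with limma 95% intervals; filled red points were called, open points were not, and the grey band spans the 5th to the 95th percentile of all genes tested. Cd36 did not pass the filter on dim genes in the first 3 panels, nor Cideb in the last. Between villi and crypts 7 members lie right of the band, whereas between crypts and E12 endoderm Dgat1 and Cideb do.

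E12 endoderm was compared with E12 mesenchyme to see which members already mark the epithelial layer. Of 8 members tested, 4 were higher in endoderm and 2 were lower, where 27.7% and 25.4% of all 9442 genes tested were called higher and lower. Their median difference was 0.40, against 0.03 over all genes tested, and the arrays did not overlap for 6 of the 8, as for 62.0% of all genes tested.

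The members higher in endoderm were the acyltransferase genes Mogat2 and Dgat2, the acyl-CoA synthetase gene Acsl5, and Plin3. Mogat2 read 7.69, 7.45 and 7.49 in endoderm replicates 2, 3 and 4, against 4.48, 5.19 and 5.16 in mesenchyme replicates 2, 3 and 4. Mesenchyme was close to the near-background level of 4.74, so that the 6.06-fold excess (2.60 ± 0.19, limma adjusted p = 7.49e-06) is not exact. Acsl5 read 10.35, 10.24 and 10.22 in endoderm, against 8.35, 8.25 and 8.44 in mesenchyme. The layers were far apart relative to their spread, and the excess was 3.79-fold (1.92 ± 0.09, limma adjusted p = 5.25e-07). Dgat2 read 8.41, 8.05 and 7.84 in endoderm, against 6.03, 6.32 and 6.17 in mesenchyme, with a 3.80-fold excess (1.93 ± 0.15, limma adjusted p = 1.32e-05), and its other probe set gave 0.87 ± 0.11. Plin3 read 8.92, 8.73 and 8.65 in endoderm, against 8.31, 8.10 and 8.20 in mesenchyme, a small but separate 1.48-fold excess (0.56 ± 0.10, limma adjusted p = 0.00217).

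Dgat1 and Slc27a4 were not called between the layers. Dgat1 read 7.61, 7.21 and 7.22 in endoderm, against 7.33, 7.13 and 6.90 in mesenchyme, with overlap (0.23, 95% interval -0.12 to 0.57). Slc27a4 read 7.91, 7.41 and 7.35 in endoderm, against 7.32, 7.33 and 7.35 in mesenchyme (0.22, 95% interval -0.12 to 0.56). Cideb read 5.25, 4.72 and 4.83 in endoderm, against 4.71, 4.59 and 4.62 in mesenchyme, and did not pass the filter on dim genes. It was called in the alternatives with median centring (0.41, adjusted p = 0.0474) and with all 8 E12 arrays (0.39, adjusted p = 0.0299).

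Plin2 and Cd36 were higher in mesenchyme. Plin2 read 8.66, 8.53 and 8.43 in endoderm, against 9.49, 9.48 and 9.51 in mesenchyme. The mesenchyme arrays lay close together and above all endoderm arrays, with a difference of -0.95 ± 0.09 (limma adjusted p = 4.11e-05), so that mesenchyme exceeded endoderm 1.94-fold. Cd36 read 3.93, 4.31 and 4.13 in endoderm, all near background, against 6.37, 6.47 and 6.12 in mesenchyme. The difference of -2.20 ± 0.13 (limma adjusted p = 2.25e-06) is therefore not exact in size, and Cd36 passed the filter only through the mesenchyme arrays. A second probe set gave -1.23 ± 0.19 and the remaining one, near background throughout, -0.12 ± 0.08 (limma adjusted p = 0.307). All 7 endothelial markers were lower in endoderm, with a median of -3.02. All 7 were above the near-background level on each mesenchyme array and 2 on each endoderm array. Those near background in endoderm passed the filter only through the mesenchyme arrays. The count of 7 is thus partly fixed by that filter, and the median is not exact. The summed log2 signal of these markers was 7.37 to 7.40 in endoderm and 10.46 to 10.66 in mesenchyme. Of 4 macrophage and leukocyte markers tested, 3 were lower in endoderm, with a summed log2 signal of 7.20 to 7.30 in endoderm and 8.43 to 8.76 in mesenchyme. Among the 3, C1qa passed the filter only through the mesenchyme arrays. All 4 erythroid markers tested were lower too. Of the 4 fat cell markers Adipoq, Lep and Cidec did not pass the filter and Retn differed by 0.15 and was not called, with a summed log2 signal of 6.36 to 6.40 in endoderm and 6.25 to 6.28 in mesenchyme. The part of these cells in the Cd36 and Plin2 signals was not tested.

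**Figure D4:**
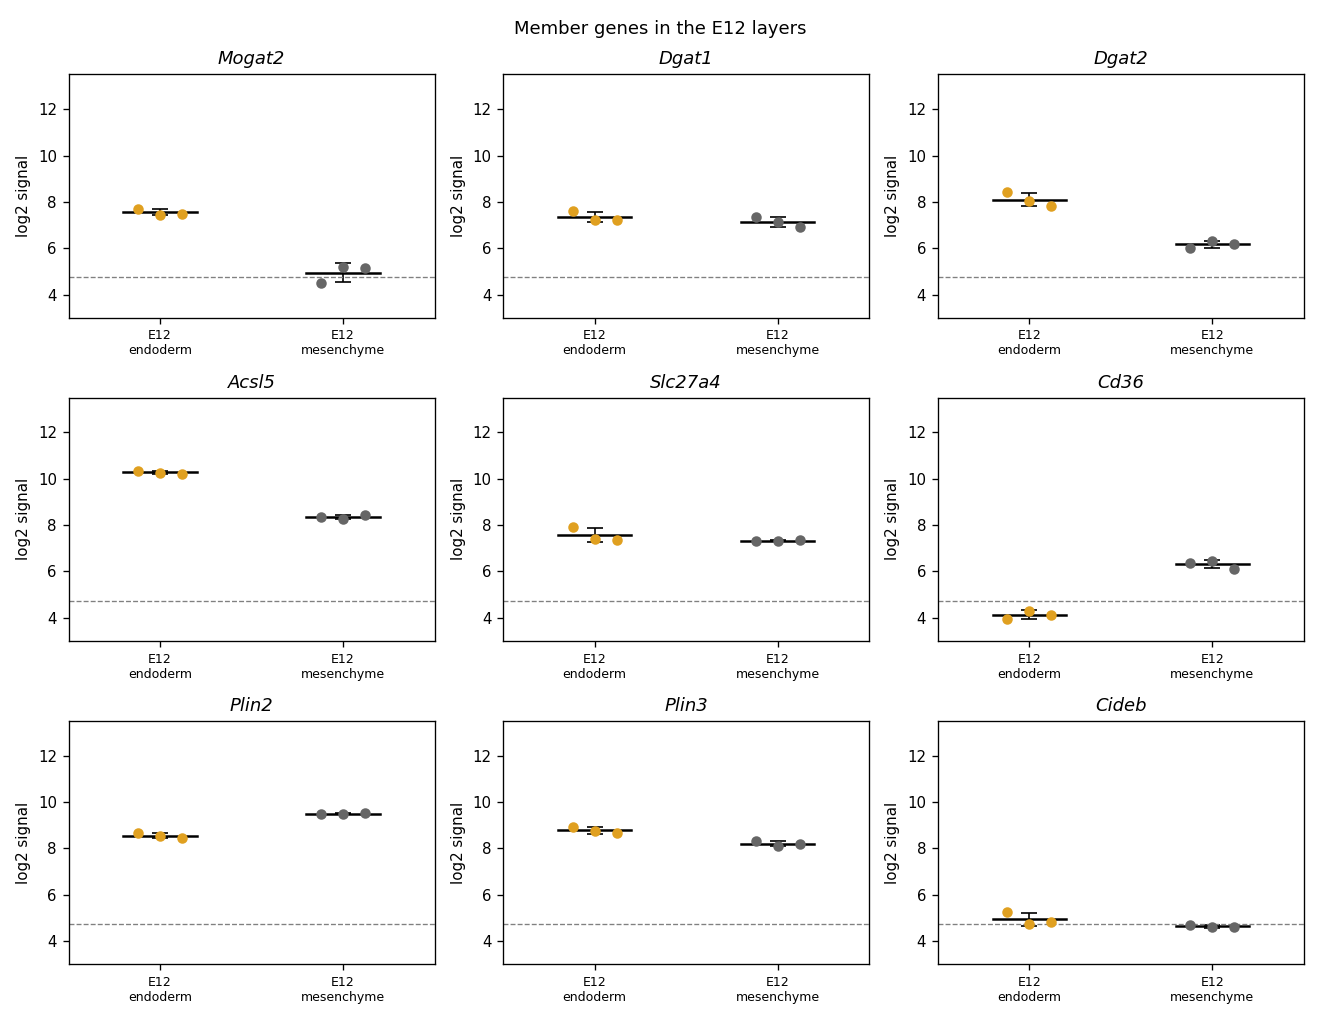
Log2 signal (vertical axis) of the 9 measured genes on the 3 endoderm and 3 mesenchyme arrays of the second table; points are arrays, bars the mean and SD, and the dashed line is the near-background level of 4.74. Mogat2, Acsl5 and Dgat2 lie higher in endoderm, Plin2 and Cd36 lie higher in mesenchyme, and the layers overlap for Dgat1 and Slc27a4.

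The E12 pair from 35 fetuses, which the second table does not hold, gave the same direction for the 6 called members. Endoderm minus mesenchyme was 1.85 for Mogat2, 1.93 for Acsl5, 1.36 for Dgat2 and 0.99 for Plin3, and -0.52 for Plin2 and -1.12 for Cd36. With 1 array a layer these are values without a test, and both Cd36 signals were near background.

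Among the related genes at E12, where 53.1% of all genes tested were called, 7 of 8 uptake and activation genes were higher in endoderm and 0 lower by limma, with 0 lower also at an unadjusted p under 0.05 (median 1.18). Without endoderm replicate 2, 3 or 4, 5 genes passed the filter and 3 were higher. Fabp2 (5.29 ± 0.12) and Fabp1 (4.01 ± 0.12) led them, with mesenchyme near background. Fabp1, Fabp2 and Slc27a2 passed the filter only through the endoderm arrays, so the count of 7 is partly fixed by that filter. Of the glycerol phosphate list, 5 of 10 were higher and 0 lower by limma, with 1 lower at an unadjusted p under 0.05 (median 0.38), with Lpin1 at 1.22 ± 0.23 and Lpcat3 at 0.94 ± 0.09. Of 8 droplet genes, 2 were higher and 3 lower (median 0.02), and on leaving out any 1 of the 6 arrays 0 or 1 were higher. The lower ones included G0s2, an inhibitor of Pnpla2 (-1.20), and the seipin gene Bscl2 (-0.54), a call lost with all E12 arrays and the replicate block (-0.34, adjusted p = 0.144). Of 9 breakdown genes, 3 were higher and 4 lower (median 0.22), from Faah, which hydrolyses fatty acid amides (1.40), to Mgll (-3.68), which passed the filter only through the mesenchyme arrays. Mgll read 4.49, 4.63 and 4.72 in endoderm, against 8.40, 8.39 and 8.09 in mesenchyme, a separation that its probe set without cross-binding types did not show (-0.02, adjusted p = 0.902). Pnpla2 (1.10, or 0.54 with the median over probe sets) and Abhd5 (-1.02), named after their values were seen, went opposite ways.

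Over the 8 arrays of the first table, the genes whose log2 signal followed each member most closely were found among the 10082 tested. Mogat2 was closest to Mttp, which loads lipid onto apolipoprotein B, and to Apoa1, the main apolipoprotein of high-density lipoprotein, each with a Pearson r of 0.995. Slc27a4 was closest to Hsd17b11 (r = 0.995) and Actn4 (r = 0.995), Acsl5 to the amino acid carrier Slc7a7 (r = 0.998) and the peroxisomal enzyme Phyh (r = 0.997), and Dgat1 to Ppp1r14d (r = 0.998) and Pdzd3 (r = 0.997). Dgat2 was closest to Cyp3a13 (r = 0.996) and Synj2bp (r = 0.991), Cideb to Ogdh (r = 0.996) and Slc39a4 (r = 0.995), and Plin3 to H2-Q2 (r = 0.996) and Lasp1 (r = 0.992). For Plin2 the closest were Isoc1 (r = 0.972) and Sema6a (r = 0.967). These are descriptions over 8 arrays in 4 groups that share a normalization, so each r reflects mainly the differences between groups.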

How the data were processed

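The data were single-colour oligonucleotide arrays labelled with phycoerythrin, on total RNA extracted on columns with DNase treatment, per the labels' protocols. The deposited values are log2 signals that the authors made with RMA, per the submitters' processing notes; the sources used here do not give its version or software. Arrays give no read depth, and their number limits the precision.

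The 2 tables hold 22690 probe sets each, of which 20393 carry 1 gene symbol in the platform annotation. Of several probe sets of a gene, the brightest on average in a fit stood for it, and it was tested if above the table's 30th percentile on at least 3 arrays. limma 3.58.1 in R 4.3.3 (lmFit, eBayes, Benjamini-Hochberg over all genes) was run as in the report and was tested on simulated data. The labels do not say whether samples sharing a number are from the same animal, so p-values measure only the spread between these samples. Deviations from the group mean correlated in same-numbered E12 samples at r = 0.21, 0.23 and 0.11. Endoderm 3 and mesenchyme 4 also reached 0.13, and the other differently numbered E12 pairs gave -0.30 to 0.01. Same-numbered adult samples gave 0.16 for number 12 and 0.07 for number 41, against -0.10 to 0.08 for differently numbered ones. These values do not settle which samples share an animal. No array was a copy of another. The members and lists were chosen with earlier results of these data known. Of each related list, the 2 largest called changes were named, and others as stated. RefSeq (GRCm38.p6) gave the promoters.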

Additional observations from a re-analysis of the deposited data

How the results depend on the processing

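The alternatives were no dim gene filter, the median of a gene's probe sets, leaving out the s, x and a probe set types, quantile normalization, median centring, a trended and robust prior, the replicate block, other sets of arrays and leaving out each replicate. The rises of Mogat2, Dgat1, Dgat2, Acsl5, Slc27a4, Plin3 and Cideb in villi against crypts, and the 6 calls between the E12 layers, kept direction and call wherever a value could be computed. The paired fit with a replicate block left 1260 genes called between villi and crypts (836 higher, 424 lower), against 3183 (1687 and 1496) without it. There only replicates 12 and 41 are shared and 1 residual degree of freedom is left, and Plin2 was lost (0.51, adjusted p = 0.268), as were the calls of Gpat4, Lpin1 and Abhd5 (adjusted p = 0.0999, 0.0685 and 0.126). Between the E12 layers the replicate block gave 5089 calls, against 5010, and changed no member's call there. Median centring gave 3331 higher and 1956 lower between the layers, against 2615 and 2395, and moved the median of all genes to 0.15, against 0.03. Quantile normalization gave 1014 higher and 1172 lower between crypts and endoderm, against 827 and 1521, and moved that median to 0.11, against 0.05. Leaving out an array gave 1851 to 3069 calls between villi and crypts (1024 to 1553 higher, 827 to 1540 lower) and 1340 to 2983 between crypts and E12 endoderm (433 to 1076 higher, 907 to 1907 lower), the lowest without K21. Without the s, x and a types, 0 members were called between crypts and endoderm, since Dgat1 and Cideb have no other probe set. In the same comparison quantile normalization turned the uncalled differences of Dgat2 (0.058), Acsl5 (0.18) and Plin2 (0.0077), and Mogat2, which was -0.28 to 0.48 on leaving out an array, turned without K41. Taking the median over probe sets, Gpam fell by 1.17 in villi against crypts and Gpat4 was not called (adjusted p = 0.0784). Mgll between villi and crypts differed by -0.19 and by 0.0032 with the replicate block, neither called, but was called lower in the 4-group fit, which uses another probe set (-1.13), and with the median over probe sets (-0.70). Cd36 rose in villi against crypts with no dim gene filter (2.06, adjusted p = 0.00559). Among the lists, counts of called genes between crypts and endoderm moved, with 1 to 6 breakdown genes higher. The cause of these changes was not tested.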
